A study of Mus musculus with 10 samples.

Results

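The genes described here encode the urea cycle and the breakdown of histidine, aromatic, branched-chain, lysine and proline amino acids in the liver. They were chosen by name, as 32 listed symbols, each of which matched a single row of the 47702 genes in the deposited table. The choice was made with earlier results of these data known. All 32 averaged 0.5 FPKM or more over the 10 libraries and were tested, as were 12247 genes in all. FPKM, the unit of all levels given, scales fragments by transcript length and by the library's mapped fragments, so that genes can be compared as well as libraries.

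Liver RNA came from female mice with a full-body Etnppl knockout (KO) and from female Etnppl wild-type (WT) mice, with 5 libraries per genotype. Both genotypes had eaten chow for 20 weeks. Etnppl encodes the phospho-lyase that degrades phosphoethanolamine. Poly-A RNA of snap-frozen liver was sequenced in paired ends, so fewer cells of a type and less RNA per cell cannot be told apart in these values. The labels did not say that each library came from a separate animal, so p-values measure only the spread between these samples.

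Amino acids that are not used for protein lose their nitrogen mainly in hepatocytes. The urea cycle turns the released ammonia and the nitrogen of aspartate into urea, beginning with carbamoyl phosphate in mitochondria. The carbon skeletons pass through separate routes that end in acetyl-CoA, acetoacetate, fumarate, glutamate or other intermediates of central metabolism, and the tryptophan route also feeds NAD synthesis. Ureagenesis and several of these routes are strongest in periportal hepatocytes, and glucagon and glucocorticoids induce many of their enzymes.

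The targeted gene checked the labels. Etnppl was at 17.7 to 26.4 FPKM in the KO libraries and 43.3 to 108 FPKM in the WT libraries. The difference was -1.49 on the log2 scale (SE 0.23, adjusted p by limma 0.005), and the transcript was not absent in KO. Absolute sequencing depth is unknown here. Depth relative to the other libraries, taken from the smallest steps among low FPKM values, ranged from 0.901 to 1.07 in KO and from 0.999 to 1.11 in WT. WT 3 stood apart from the other WT libraries at Cyp3a16, a cytochrome P450. That gene was at 0.16 to 2.65 FPKM in the KO libraries, against 1.07 FPKM in WT 3 and 34.1 to 86.6 FPKM in the other WT libraries, so WT 3 lay within the KO range. Cyp3a16 was named after its values were seen. Etnppl itself was highest in WT 3, at 108 FPKM, against 43.3 to 69.7 FPKM in the other WT libraries. Among the 32 genes, the removal of WT 3 ended the call of Prodh and added that of Slc25a15 (both given below).

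Of the 32 genes, 3 rose in KO, 5 fell and 24 did not pass the test, which was limma on log2(FPKM + 0.5) with Benjamini-Hochberg adjustment over all tested genes and a threshold of 0.05. That was 25% of the members, beside 8.54% of all tested genes. With the filter raised to a mean of 5 FPKM, it was 28.1% of the members, beside 13.2% of all genes then tested. The members were chosen with earlier results of these data known, so these shares are a description and not a test. By direction, 3.98% of all tested genes rose and 4.56% fell. The genes that rose were Cps1, Aass and Kynu, and those that fell were Afmid, Prodh2, Prodh, Nags and Ddc. KO and WT libraries did not overlap for 6 members, 3 above and 3 below, beside 8.87% of all tested genes, of which 4.08% had all KO libraries above and 4.78% all below. The median log2 difference of the 32 genes was 0.07, beside -0.02 over all tested genes. In the annotation 7 members share exon bases with another gene, among them Bckdha (61.7% of its exon bases, with B3gnt8), Afmid (44.2%, with Gm20708) and Aldh4a1 (32.5%, with Gm21969), so their values are less certain.

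**Figure D1:**
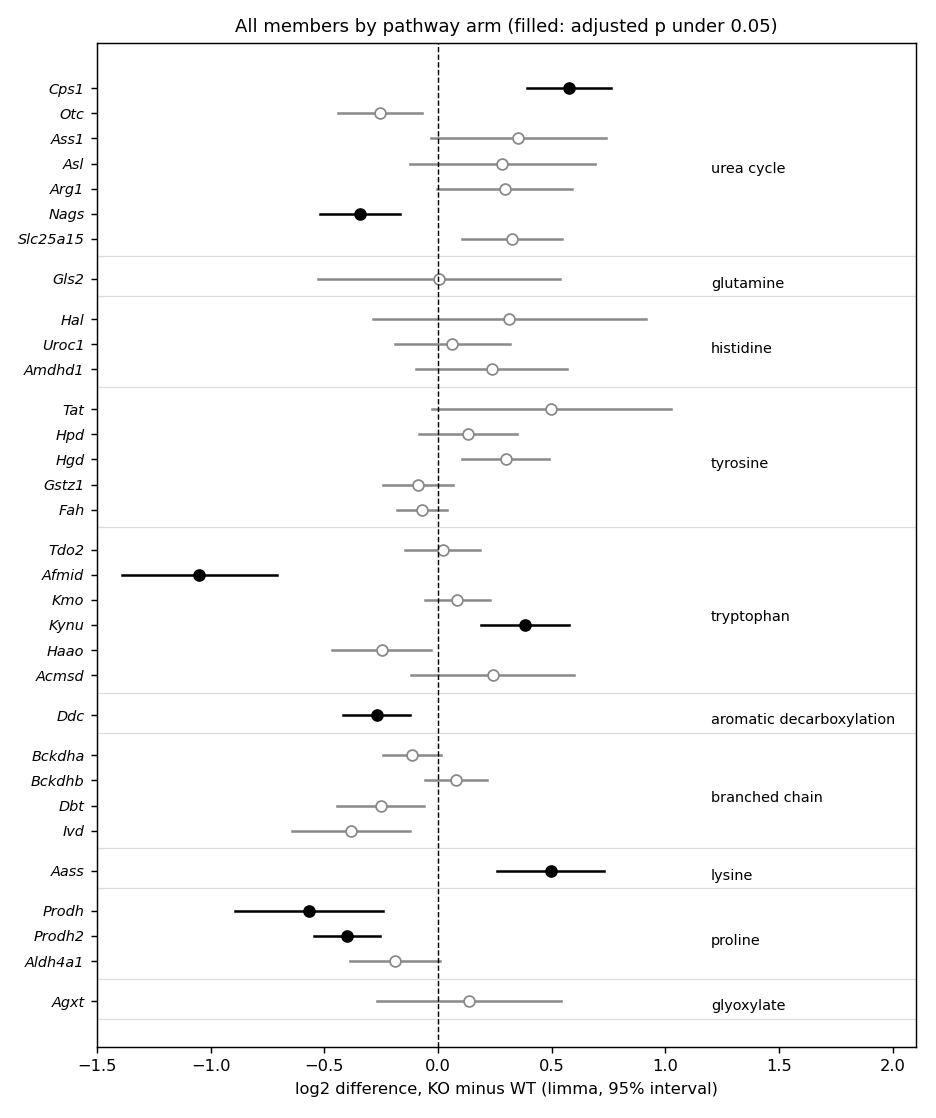
Log2 difference, KO minus WT, of each of the 32 genes with its 95% interval from limma (horizontal axis), grouped by pathway arm down the vertical axis. Filled points are the 8 genes with an adjusted p under 0.05. Differences run from -1.05 for Afmid to 0.58 for Cps1, and the urea cycle, tyrosine, tryptophan and branched-chain arms hold values on both sides of 0.

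Promoter sequences are shown for Prodh2, which fell, and Aass, which rose, because they are members with a small p whose upstream windows are held in RefSeq (build GRCm38.p6) and contain at least 100 bases in a row outside annotated exons. Of the 32 genes, 26 matched an entry of that table. The Prodh2 stretch lies at chr7:30493408-30493621 on the plus strand and spans bases -250 to -37 before the transcript start. The Aass stretch lies at chr6:23132987-23133236 on the minus strand and spans bases -250 to -1. Capitals mark ATTGG, the reverse complement of the CCAAT box.
Prodh2: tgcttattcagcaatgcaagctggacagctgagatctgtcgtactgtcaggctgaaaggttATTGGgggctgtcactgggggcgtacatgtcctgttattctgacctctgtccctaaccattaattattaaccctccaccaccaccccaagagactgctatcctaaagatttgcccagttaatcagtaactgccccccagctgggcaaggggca
Aass: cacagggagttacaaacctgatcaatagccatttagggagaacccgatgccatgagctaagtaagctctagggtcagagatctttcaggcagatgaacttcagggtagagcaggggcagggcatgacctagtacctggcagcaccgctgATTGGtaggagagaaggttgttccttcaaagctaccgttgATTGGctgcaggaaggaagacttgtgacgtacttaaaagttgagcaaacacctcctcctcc

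The 250 bases before each start were searched on both strands for the exact letters of 9 motifs. Sites with a mismatch were not counted, so a motif without a match here may still have a similar site. The Prodh2 stretch holds letters close to the HNF1 palindrome, which were not counted for that reason. CCAAT occurred once in Prodh2, at -189 to -185, and at -101 to -97 and -61 to -57 in Aass, in each case on the antisense strand. It occurs in 33.8% of the 32851 windows of this length. The letters of the TATA box (TATAAA, in 12.4% of windows), the GC box (GGGCGG, 32.7%), the cAMP response element (TGACGTCA, 1.55%), the E-box (CACGTG, 6.02%), the glucocorticoid receptor core (AGAACA, 16.1%), the C/EBP palindrome (TTGCGCAA, 0.164%), an HNF4 site (CAAAGTCCA, 0.384%) and the HNF1 palindrome (0.00913%) were in neither window. As CCAAT alone had matches, no overlap between different motifs was possible.

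Of the 7 urea cycle genes, 1 rose, 1 fell and 5 did not pass the test. Cps1 (ENSMUSG00000025991, chromosome 1, 67123026 to 67231259, plus strand, mm10), which makes carbamoyl phosphate from ammonia and bicarbonate, had 987, 1016, 1110, 1004 and 1170 FPKM in KO 1 to 5, against 642, 863, 738, 646 and 672 FPKM in WT 1 to 5. Every KO library lay above every WT library, with WT 2 the nearest. The means were 1057 ± 78.8 FPKM in KO and 712 ± 92.7 FPKM in WT (SD, n = 5 each), which is 0.58 higher on the log2 scale (SE 0.09, adjusted p by limma 0.0034). Cps1 stayed called under all 20 alternatives tried.

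Nags (chromosome 11, 102145513 to 102149477, plus strand), which makes N-acetylglutamate, the obligate activator of the Cps1 enzyme, fell. It had 31.6, 32.01, 27.8, 34.4 and 30.2 FPKM in KO 1 to 5, against 40.2, 44.0, 40.3, 32.8 and 41.8 FPKM in WT 1 to 5. The groups overlapped only through WT 4, which lay below KO 4. The difference, on the log2 scale, was -0.34 (SE 0.08, adjusted p by limma 0.026). The call was lost without KO 2, KO 3, KO 5, WT 1, WT 2 or WT 5 (adjusted p up to 0.062) and with no filter on low values (0.053). Gm11586, an antisense gene that shares 443 exon bases with Nags, was at 5.34 FPKM in KO and 5.14 FPKM in WT on average.

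The other 5 genes of the cycle did not pass the test. Otc, which joins carbamoyl phosphate to ornithine, had 136, 120, 111, 107 and 99.6 FPKM in KO 1 to 5, against 142, 144, 147, 125 and 124 FPKM in WT 1 to 5 (log2 difference -0.25, adjusted p = 0.086, but 0.031 without KO 1). Slc25a15, the mitochondrial carrier that exchanges ornithine for citrulline, ranged from 137 to 154 FPKM in KO and from 98.0 to 146 FPKM in WT. Its log2 difference was 0.32 (adjusted p = 0.070), and it passed without WT 3 (0.41, adjusted p = 0.016), after quantile normalization (adjusted p = 0.047) and with library weights (adjusted p = 0.034).

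The cytosolic enzymes Ass1, Asl and Arg1, which make argininosuccinate, cleave it, and release urea from arginine, varied widely among WT libraries. Ass1 had 2486, 2589, 2339, 2516 and 2441 FPKM in KO 1 to 5, against 1741, 2888, 2485, 1513 and 1446 FPKM in WT 1 to 5. The KO libraries therefore lay within the span of WT, where WT 2 and WT 3 were high and WT 1, WT 4 and WT 5 low. Asl and Arg1 had the same 2 WT libraries highest. Their log2 differences were 0.28 for Asl (95% interval -0.13 to 0.69) and 0.29 for Arg1 (-0.0045 to 0.59), and that of Ass1 was 0.35 (-0.033 to 0.74).

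Level ratios within a library do not depend on how libraries are scaled. The ratio of Cps1 to Otc was 9.38 ± 1.67 in KO and 5.23 ± 0.547 in WT (SD, n = 5 each), with KO libraries from 7.26 to 11.7 and WT libraries from 4.52 to 6.01. The ratio of Ass1 to Asl, by contrast, was 3.43 ± 0.284 in KO and 3.26 ± 0.180 in WT, and that of Asl to Arg1 was 0.511 ± 0.039 in KO and 0.517 ± 0.065 in WT. The 2 groups overlapped for both of these ratios. The ratios given here and below were chosen after the values were seen and are given with no test. Ratios were taken for all neighbouring genes in the list order of each arm. Of these, 4 had all KO libraries above all WT libraries, 4 had all below, and 14 overlapped.

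**Figure D2:**
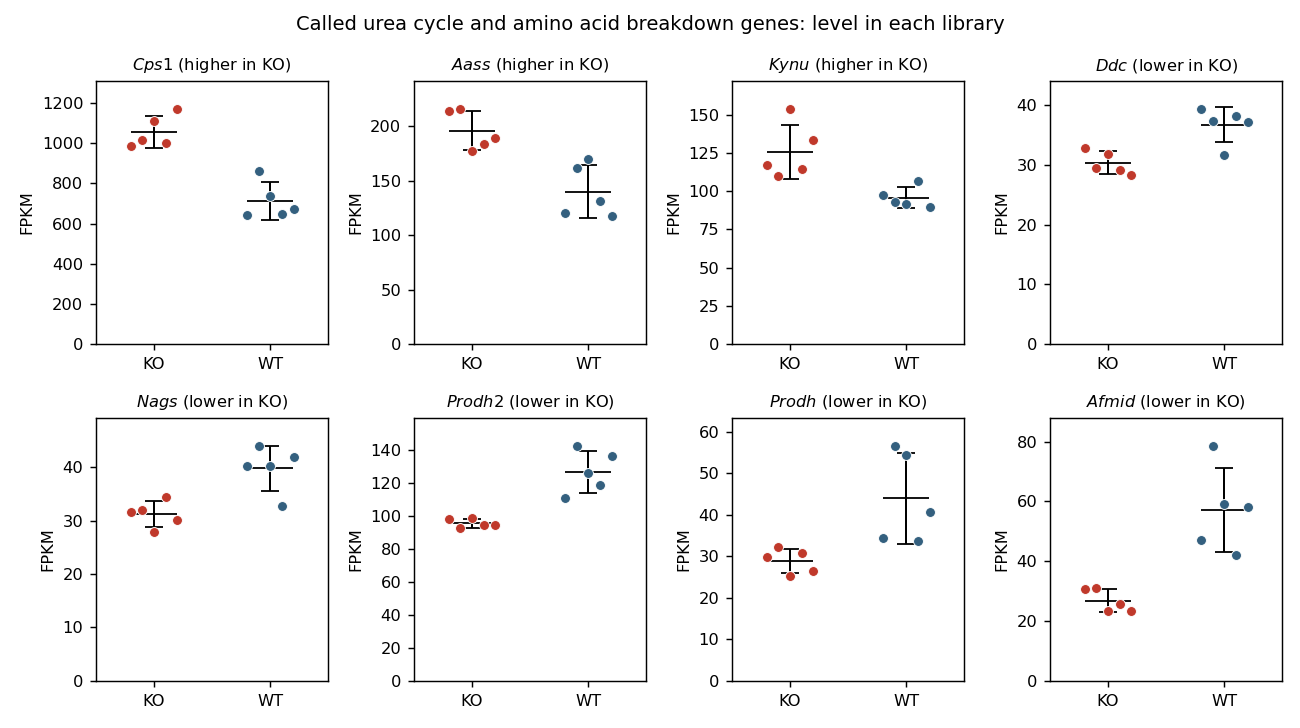
FPKM (vertical axes, from 0) in each library of the 8 called genes, KO on the left and WT on the right of each panel, with the mean and SD of 5 libraries in black. Every KO library lies on one side of every WT library for Cps1, Aass, Kynu, Prodh2, Prodh and Afmid, while Nags and Ddc overlap through WT 4 and WT 3.

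Gls2, the liver glutaminase that releases ammonia for the cycle in periportal cells, did not pass the test. It ranged from 126 to 187 FPKM in KO and from 101 to 229 FPKM in WT, with a log2 difference of 0.0043 and a 95% interval of -0.53 to 0.54. Among 11 tested genes that supply the cycle, 2 fell, 1 rose and 8 did not pass (median log2 difference -0.04). Car5a, the mitochondrial carbonic anhydrase that provides bicarbonate to Cps1, fell to 28.5 ± 1.72 FPKM in KO, against 40.0 ± 6.93 FPKM in WT (log2 difference -0.47, limma adjusted p = 0.016). Glud1, glutamate dehydrogenase, fell to 236 ± 18.5 FPKM in KO, against 290.5 ± 20.0 FPKM in WT (-0.30, adjusted p = 0.019). KO and WT libraries did not overlap for either gene. Oat, ornithine aminotransferase, also had no overlap but did not pass (log2 difference 0.45, limma adjusted p = 0.088). It ranged from 1253 to 1671 FPKM in KO and from 718 to 1251 FPKM in WT. Gpt2, the mitochondrial alanine aminotransferase, rose by 0.29 on the log2 scale (adjusted p = 0.044), a call that was lost in 9 of the 10 fits without a library, all but that without KO 3 (adjusted p up to 0.10). Glud1 missed the threshold after quantile normalization (adjusted p = 0.053). Slc25a2, Arg2 and Aldh18a1 were below the minimum of 0.5 FPKM.

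The tryptophan route held the largest difference among the members. Afmid (chromosome 11, 117825924 to 117839908, plus strand), the formamidase that turns N-formylkynurenine into kynurenine, had 30.7, 31.2, 23.2, 25.7 and 23.5 FPKM in KO 1 to 5, against 47.1, 78.5, 59.3, 42.1 and 58.2 FPKM in WT 1 to 5. All KO libraries were below all WT libraries. On average KO held 47.1% of the WT level, and the difference, on the log2 scale, was -1.05 (SE 0.15, adjusted p by limma 0.0037), which stayed called under all 20 alternatives tried.

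Afmid starts head to head with Tk1, the cytosolic thymidine kinase of dividing cells, on the opposite strand (117815526 to 117826092). In the annotation the genes share 83 exon bases, which are 2.3% of the Afmid exon bases. Tk1 also fell, with 1.88, 2.38, 1.47, 2.84 and 2.73 FPKM in KO 1 to 5, against 5.08, 8.62, 6.72, 3.95 and 7.34 FPKM in WT 1 to 5 (log2 difference -1.29, SE 0.20, limma adjusted p = 0.0046). Tk1 was named after its values were seen. The groups did not overlap for Tk1 either, and its call held under each of the 19 alternatives in which it was tested. The region where both genes start is annotated as exon of Tk1, so no sequence is shown for it. A read-through gene, Gm20708, shares 1566 exon bases with Afmid on the same strand, 44.2% of the Afmid exon bases. It was listed at 0 in every KO library and in WT 4, and at 0.21 to 0.62 FPKM in the other WT libraries. The strand setting, which is not given in the sources used here, bears on the 83 bases shared with Tk1. It cannot separate Afmid from Gm20708, which lies on the same strand. How reads in shared bases were divided between genes is not known here.

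Kynu (chromosome 2, 43555329 to 43682715, plus strand), the kynureninase that cleaves kynurenine and 3-hydroxykynurenine, rose. Its levels were 117, 110, 154, 115 and 133 FPKM in KO 1 to 5, against 97.5, 93.2, 91.8, 107 and 89.8 FPKM in WT 1 to 5. The groups did not overlap, with WT 4 close to KO 2. The difference, on the log2 scale, was 0.38 (SE 0.09, adjusted p by limma 0.024), and the call was lost without KO 5 (adjusted p = 0.060) or WT 5 (0.058).

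The steps around them did not pass the test. Tdo2, the dioxygenase that opens the tryptophan ring and the most abundant gene of the route, had 648 ± 37.1 FPKM in KO and 642 ± 70.0 FPKM in WT, a log2 difference of 0.02 with a 95% interval of -0.15 to 0.19. Kmo, which hydroxylates kynurenine, differed by 0.09, and Haao, which oxidises 3-hydroxyanthranilate, by -0.25 (adjusted p = 0.15). Acmsd, which diverts that product away from NAD synthesis, had the lowest level of the 32 genes, from 4.93 to 7.22 FPKM in KO and from 3.83 to 7.66 FPKM in WT. The Tdo2 to Afmid ratio was 24.7 ± 4.71 in KO and 11.6 ± 2.04 in WT, and that of Kmo to Kynu was 0.995 ± 0.052 in KO and 1.23 ± 0.105 in WT (SD, n = 5 each), with no overlap for either.

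Of 6 tested genes in side branches of tryptophan breakdown, 2 fell and 4 did not pass (median log2 difference -0.16). Ido2, an indoleamine dioxygenase that acts on tryptophan, fell, with 9.50 to 13.2 FPKM in KO, against 14.4 to 25.6 FPKM in WT (log2 difference -0.76, limma adjusted p = 0.0089). Kyat3, a kynurenine aminotransferase listed in the file as Ccbl2, fell, with 48.1 to 62.8 FPKM in KO, against 61.9 to 103 FPKM in WT (-0.56, adjusted p = 0.020, and 0.052 without KO 5). Libraries of the genotypes did not overlap for Ido2 but did for Kyat3, through WT 5. Ido1 was listed at 0 in all libraries.

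Ddc (chromosome 11, 11814101 to 11898144, minus strand), which decarboxylates aromatic amino acids, fell. It had 32.9, 29.5, 31.9, 29.1 and 28.3 FPKM in KO 1 to 5, against 39.3, 37.4, 31.6, 38.2 and 37.2 FPKM in WT 1 to 5. WT 3 was the single WT library within the KO range. The difference, on the log2 scale, was -0.27 (SE 0.07, adjusted p by limma 0.033). Its call was lost without KO 2, KO 4, KO 5, WT 1, WT 2, WT 4 or WT 5 (adjusted p up to 0.078) and with no filter on low values (0.060).

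In the breakdown of proline and hydroxyproline, 2 of 3 members fell and none rose. Prodh2 (chromosome 7, 30493622 to 30513402, plus strand), the hydroxyproline dehydrogenase, had 97.9, 92.5, 98.5, 94.3 and 94.2 FPKM in KO 1 to 5, against 111, 142, 126, 118 and 136 FPKM in WT 1 to 5. The KO libraries lay close together, and all were below the lowest WT library, WT 1. The difference, on the log2 scale, was -0.40 (SE 0.07, adjusted p by limma 0.0052), and the call held under all 20 alternatives tried.

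Prodh (chromosome 16, 18060357 to 18090203, minus strand), the proline dehydrogenase, had 29.7, 32.2, 25.3, 30.8 and 26.4 FPKM in KO 1 to 5, against 34.4, 56.6, 54.5, 33.7 and 40.7 FPKM in WT 1 to 5. The groups were separated by a narrow margin, from KO 2 to WT 4. Its difference, on the log2 scale, was -0.57 (SE 0.15, adjusted p by limma 0.039). The call was lost in 8 of the 10 fits without a library, all but those without WT 1 or WT 4 (adjusted p up to 0.087), and with no filter on low values (0.074). Aldh4a1, which completes both routes to glutamate and glyoxylate precursors, did not pass (log2 difference -0.19, adjusted p = 0.23). None of 7 tested genes that complete proline and glyoxylate metabolism was called by limma, and 1 had an unadjusted p under 0.05 (median log2 difference 0.03).

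In lysine breakdown the entry enzyme Aass rose, while Gcdh, of a later step, and the peroxisomal oxidase Pipox fell. Aass (chromosome 6, 23072173 to 23132986, minus strand), the bifunctional enzyme of the opening steps through saccharopine, had 214, 216, 178, 184 and 189 FPKM in KO 1 to 5, against 121, 162, 170, 131 and 117 FPKM in WT 1 to 5. No WT library reached the lowest KO library, KO 3. The difference, on the log2 scale, was 0.49 (SE 0.11, adjusted p by limma 0.019), and the call held under all 20 alternatives tried. Of 5 tested genes of the later and peroxisomal steps, 2 fell and 3 did not pass (median -0.05). Pipox, the peroxisomal oxidase of sarcosine and pipecolate, fell to 77.8 ± 5.30 FPKM in KO, against 112 ± 7.96 FPKM in WT (log2 difference -0.52, adjusted p = 0.0012). Gcdh, glutaryl-CoA dehydrogenase, fell by 0.21 on the log2 scale (adjusted p = 0.033). Pipox stayed called under all 20 alternatives tried. Gcdh lost its call without KO 2, KO 3, KO 4, KO 5, WT 2, WT 3 or WT 5 (adjusted p up to 0.075), and after upper-quartile or quantile scaling or with no filter on low values (up to 0.14).

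None of the 5 tyrosine and 3 histidine members was called by limma, and Hgd alone had an unadjusted p under 0.05. Tat, the tyrosine aminotransferase and a classical target of glucocorticoids, had 1418, 1651, 1198, 1707 and 1254 FPKM in KO 1 to 5, against 702, 1273, 1688, 1013 and 699 FPKM in WT 1 to 5. Its difference of 0.50 on the log2 scale had a 95% interval of -0.028 to 1.02 (adjusted p = 0.23). WT 3 lay among the highest KO libraries, and WT 1 and WT 5 lay lowest of all. Hpd, which makes homogentisate and was the most abundant gene of the arm, averaged 1926 ± 106 FPKM in KO and 1774 ± 295 FPKM in WT (SD, n = 5 each).

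Hgd, the dioxygenase that opens homogentisate, was closest to the threshold. It ranged from 457 to 524 FPKM in KO and from 349 to 500.3 FPKM in WT, with WT 2 the single WT library within the KO range. The log2 difference was 0.30 (adjusted p = 0.058), and it passed without WT 2 (0.37, adjusted p = 0.0098), with the filter raised to 5 FPKM (adjusted p = 0.047), after quantile normalization (0.030) and with library weights (0.037). The last enzymes of the route, the isomerase Gstz1 and the hydrolase Fah, had differences of -0.09 and -0.07.

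Hal, the histidase that begins histidine breakdown, ranged from 124 to 198 FPKM in KO and from 72.8 to 184 FPKM in WT (log2 difference 0.31, 95% interval -0.29 to 0.91). Amdhd1, which opens the imidazolone ring, differed by 0.23, and Uroc1, urocanase, by 0.06. Ftcd, which completes the route by passing the formimino group to folate, was the single gene listed for that step and rose. Its level was 208 ± 18.2 FPKM in KO and 149 ± 19.4 FPKM in WT, with no overlap (log2 difference 0.49, limma adjusted p = 0.0085), and it stayed called under all 20 alternatives tried.

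None of the 4 branched-chain members was called by limma, and 2, Dbt and Ivd, had an unadjusted p under 0.05 (median log2 difference -0.18). Bckdha and Bckdhb, the subunits of the decarboxylase of the branched-chain keto acid dehydrogenase, differed by -0.11 and 0.08, and Dbt, its acyltransferase core, by -0.25 (adjusted p = 0.097). The Bckdha to Bckdhb ratio was 2.42 ± 0.114 in KO and 2.77 ± 0.070 in WT (SD, n = 5 each), without overlap. Ivd, isovaleryl-CoA dehydrogenase of leucine breakdown, had 48.1, 51.2, 38.6, 52.1 and 46.4 FPKM in KO 1 to 5, against 54.0, 65.1, 78.5, 63.5 and 49.9 FPKM in WT 1 to 5. WT 5 lay within the KO range, and the difference of -0.38 (adjusted p = 0.070) passed without it (-0.46, adjusted p = 0.045).

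Of 20 tested genes that complete branched-chain breakdown, 3 fell, 1 rose and 16 did not pass (median -0.05). Acad8, isobutyryl-CoA dehydrogenase of valine breakdown, fell to 20.1 ± 0.895 FPKM in KO, against 27.7 ± 2.67 FPKM in WT (log2 difference -0.45, limma adjusted p = 0.0037), and stayed called under all 20 alternatives tried. Acat1, a mitochondrial thiolase that acts in isoleucine and ketone body metabolism, fell by 0.36 on the log2 scale (adjusted p = 0.026, up to 0.062 without KO 1, KO 2, KO 4 or WT 5). The propionyl-CoA carboxylase subunit Pccb fell by 0.17 (adjusted p = 0.049), a call lost in 9 of the 10 fits without a library, all but that without KO 1 (up to 0.11), and after each scaling tried (up to 0.091). Mcee, the methylmalonyl-CoA epimerase, rose by 0.31 (adjusted p = 0.038), and lost its call in 8 of those fits, all but those without WT 2 or WT 3 (up to 0.087).

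Agxt, the aminotransferase that removes glyoxylate with alanine, did not pass the test. It had 188, 230, 193, 336 and 227 FPKM in KO 1 to 5, against 186, 205, 310, 180 and 188 FPKM in WT 1 to 5. A single library of each genotype, KO 4 and WT 3, was high. Among 8 tested genes of serine, threonine, glycine and asparagine breakdown, the glycine cleavage protein Gcsh fell by 0.17 on the log2 scale (adjusted p = 0.043) and 7 did not pass. The Gcsh call was lost in 8 of the 10 fits without a library, all but those without KO 4 or WT 3 (adjusted p up to 0.098), and after each scaling tried (up to 0.060).

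**Figure D3:**
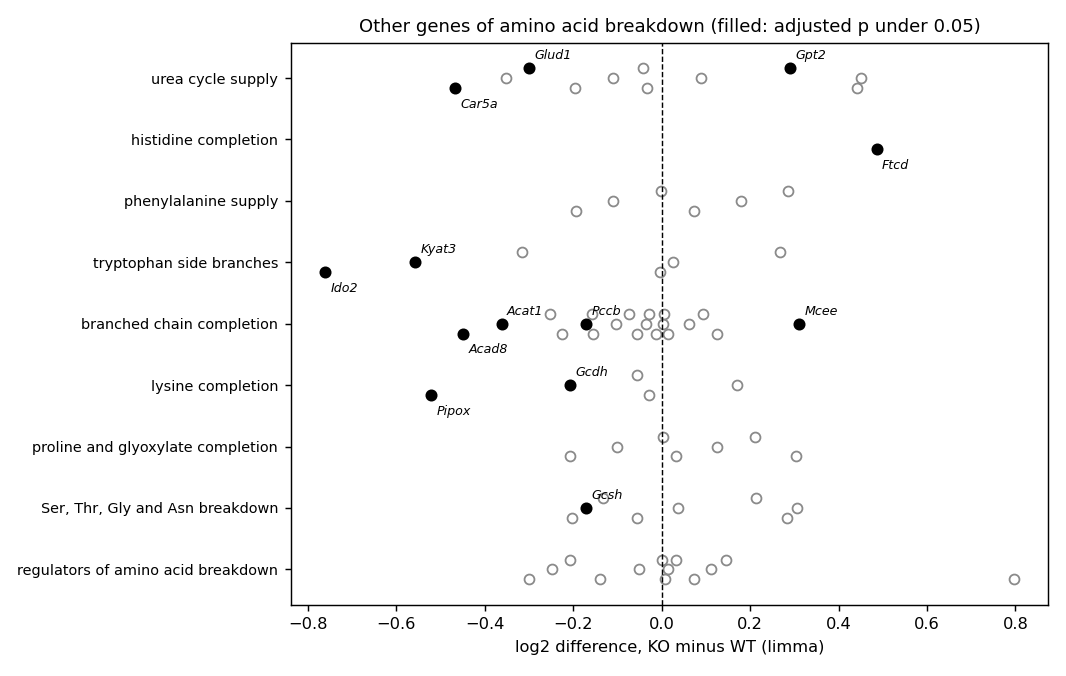
Log2 difference, KO minus WT (horizontal axis), of the 77 tested genes of amino acid breakdown that are not members, by list down the vertical axis. Filled and named points are the 13 with an adjusted p under 0.05, of which 10 fell and 3 rose.

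Over these lists together, 3 of 77 tested genes rose and 10 fell, which is 16.9% beside 8.54% of all tested genes. Of all genes tested with the filter raised to a mean of 5 FPKM, 13.2% were called. The lists were chosen with earlier results of these data known, so their share is a description and not a test. With no filter on low values, Gpt2, Acat1, Pccb, Mcee, Gcsh and Gcdh missed the threshold (adjusted p up to 0.083), and with library weights Pccb did (0.056). None of 13 regulators of amino acid breakdown, among them the glucagon receptor Gcgr, the glucocorticoid receptor Nr3c1, Klf15, Hnf4a and Ppargc1a, was called by limma, and 1 of them, Hnf4a, had an unadjusted p under 0.05 (log2 difference -0.30, adjusted p = 0.12). Ppargc1a, a coactivator of the fasting response, had the widest interval, from -0.16 to 1.75 around a difference of 0.80.

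The members varied more among WT than among KO libraries. The SD of log2(FPKM + 0.5) was larger in WT for 28 of the 32 genes (87.5%), beside 55.3% of all tested genes, with a median of 0.123 in KO and 0.226 in WT for the members and 0.144 in KO and 0.155 in WT for all tested genes. The 4 members with the larger spread in KO were Otc, Kmo, Kynu and Agxt. WT 2 and WT 3 were the 2 highest WT libraries for 25 members. WT 4 was the lowest WT library for 16 members and WT 5 for 10. Summed over the members, the 32 genes held 1.73% to 1.84% of all FPKM in KO libraries, against 1.36%, 1.94%, 1.81%, 1.35% and 1.37% in WT 1 to 5.

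**Figure D4:**
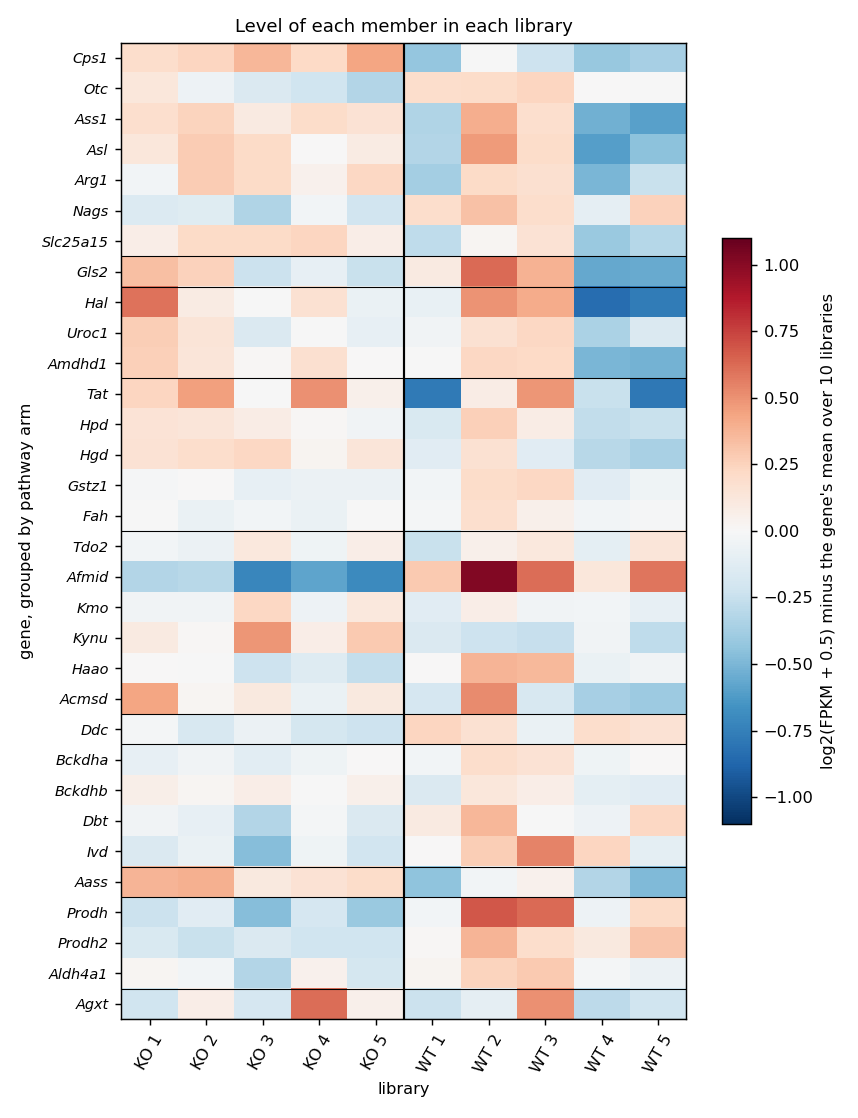
Each cell shows log2(FPKM + 0.5) of a member minus its mean over the 10 libraries, with genes down the page by pathway arm and KO libraries left of WT libraries. WT 2 and WT 3 are high, and WT 4 and WT 5 low, across many arms, while KO libraries lie closer together.

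**Figure D5:**
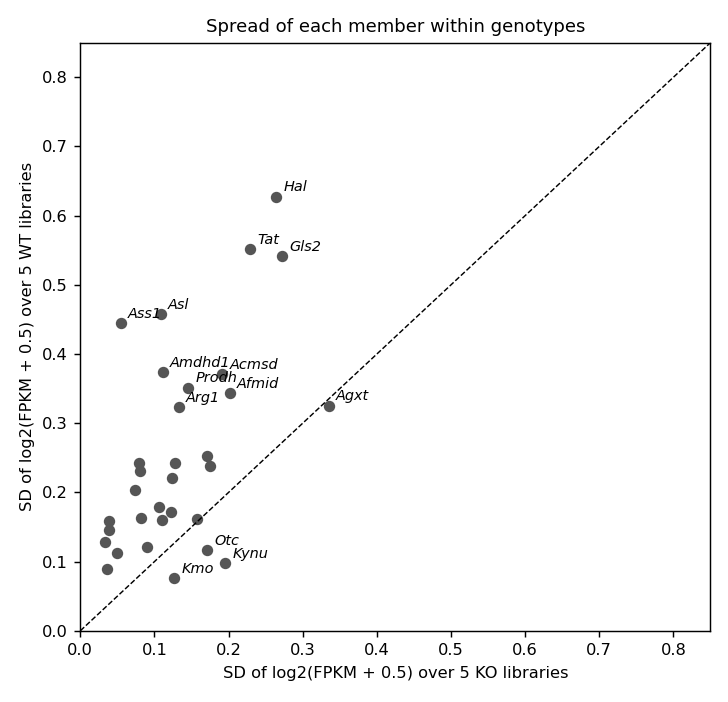
SD of log2(FPKM + 0.5) over the 5 KO libraries (horizontal axis) and the 5 WT libraries (vertical axis) for each member, with the line of equal spread dashed. Of the 32 genes, 28 lie above the line, with Hal, Tat and Gls2 highest.

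The median deviation of the urea cycle genes from their mean over all libraries was 0.12, 0.23, 0.21, 0.05 and 0.09 in KO 1 to 5, against -0.32, 0.21, 0.18, -0.42 and -0.31 in WT 1 to 5 on the log2 scale. For the histidine genes it was 0.27, 0.13, -0.0049, 0.17 and -0.07 in KO 1 to 5, against -0.04, 0.23, 0.22, -0.50 and -0.52 in WT 1 to 5. WT 4 and WT 5 were low in both arms, and WT 1 was low for the urea cycle and near the middle for histidine. Other arms had another order. For the proline genes the median deviation was 0.02, 0.37, 0.29, -0.02 and 0.21 in WT 1 to 5, and for Ddc, the only gene of its arm, WT 3 was the lowest WT library and WT 1 the highest.

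Markers of liver zones and of other cell types were measured beside these genes. Of 9 periportal markers that are not members, Hsd17b13 (0.41) and Cyp2f2 (0.33) rose and Ctsc (-0.46) fell. Of the 6 not called, Pck1 (0.25) was higher, and Hsd17b6 (-0.39), Gldc (-0.13), Sds (-0.06), Apof (-0.05) and Aldh1b1 (-0.01) lower. The summed level of the 9 markers was 3812 to 4005 FPKM in KO and 3058 to 3739 FPKM in WT. Of 12 pericentral markers, Rgn (-0.84), Gulo (-0.36) and Axin2 (-0.60) fell and Slc1a2 (0.22) rose. Of the 8 not called, Oat (0.45, without overlap), Cyp1a2 (0.24) and Rhbg (0.02) were higher. Tbx3 (-0.67), Glul (-0.20), Lgr5 (-0.18), Lect2 (-0.15) and Cyp2e1 (-0.08) were lower. The sum of the 12 markers was 7111 to 7618 FPKM in KO and 6768 to 7782 FPKM in WT. Of 8 general hepatocyte markers, transferrin (Tf, -0.25) and Apoh (-0.17) fell. Of the 6 not called, Alb (0.09), Ttr (0.10) and Apoa1 (0.14) were higher, and Serpinc1 (-0.13), Fgb (-0.22) and Ambp (-0.10) lower. For Alb every KO library lay above every WT library, at 43188 to 44898 FPKM in KO and 39869 to 41786 FPKM in WT. The sum of the 8 markers was 68154 to 73247 FPKM in KO and 65488 to 70550 FPKM in WT.

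Among other cell types, 5 of 12 Kupffer cell markers fell and none rose by the test, Clec4f (-0.51), C1qa (-0.46), Vsig4 (-0.43) and Csf1r (-0.37) among those that fell. Of the 7 not called, Marco was higher in KO (0.75, limma adjusted p = 0.19), at 7.95 to 26.1 FPKM in KO and 4.55 to 10.5 FPKM in WT. The rest were lower, by -0.30 (Adgre1) to -0.12 (Timd4). The summed level of the 12 markers was 207 to 299 FPKM in KO and 297 to 344 FPKM in WT. In the remaining lists, the stellate marker Reln (-0.26) and the cholangiocyte marker Sox9 (-0.56) fell and the erythroid Alas2 (0.60) rose. The other 4 erythroid genes, which are globins, had differences from -0.35 to -0.27, and those of the other 4 tested cholangiocyte markers were 0.33 for Tspan8, 0.10 for Krt19, 0.03 for Epcam and -0.22 for Spp1, none of them called. No endothelial, lymphocyte or neutrophil marker was called by limma, and 3, 3 and 0 of them had an unadjusted p under 0.05. Summed levels were 185 to 206 FPKM in KO and 197 to 206 FPKM in WT for sinusoidal endothelium, and 221 to 257 FPKM in KO and 228 to 318 FPKM in WT for stellate cells. Sums were 13.6 to 18.9 FPKM in KO and 14.9 to 20.6 FPKM in WT for cholangiocytes, and 17.9 to 29.6 FPKM in KO and 25.7 to 50.9 FPKM in WT for lymphocytes. For neutrophils they were 4.08 to 8.82 FPKM in KO and 4.99 to 10.5 FPKM in WT, and for erythroid transcripts 338 to 576 FPKM in KO and 385 to 700 FPKM in WT. The neutrophil marker Ly6g was at 0 in 8 of the 10 libraries. Of the named markers that were called, Hsd17b13, Gulo, Rgn, Clec4f, Vsig4 and C1qa stayed called under all 20 alternatives tried. The others, Tf, Apoh, Cyp2f2, Ctsc, Slc1a2, Axin2, Csf1r, Reln, Sox9 and Alas2, each lost the call in 6 to 9 of the 10 fits without a library (adjusted p up to 0.11). The part of zones and of other cell types in the differences of the 32 genes was not tested.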

How the data were processed

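Expression was deposited by the authors as FPKM per gene and library. Per the submitters' processing notes, which assign no roles, the build was mm10 and the tools were DESeq2, DESeq, RSEM, STAR and R 4.0.2. A directional cDNA protocol is given in the labels, but neither the annotation release nor the strand setting of the counting is given in the sources used here. FPKM depends on the library total, so strongly rising abundant transcripts push other values down. Members and lists were chosen with earlier results of these data known.

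No further scaling was applied before taking log2(FPKM + 0.5), which understates fold changes of low genes. Genes averaging 0.5 FPKM or more entered a two-sided limma 3.58.1 test in R 4.3.3, with genotype as the sole term and the trend and robust options of eBayes. Calls needed an adjusted p (Benjamini-Hochberg) below 0.05. The fit was tested on simulated data with independent noise in each gene. Shifts shared by many genes of a library were not simulated. Listed genes were matched by symbol, or by Ensembl ID or older symbol for 5 of them. Named genes were all members, Etnppl, every called gene of the pathway lists up to 6 per list by p, and up to 4 called genes per marker list by p. Some uncalled genes of the pathway and marker lists were named beside them. So were Cyp3a16 and, among genes that overlap members, Tk1 and others. Positions and exon overlaps came from GENCODE M21 (GRCm38, the assembly of mm10). Relative depth came from 104 low genes. Figures were drawn with matplotlib 3.10.9. Alternatives were other pseudocounts, filters and scalings, library weights, non-robust moderation, a replicate block and leaving out each library.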

Additional observations from a re-analysis of the deposited data

Results flagged for a closer look

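Groups of 5 libraries were searched for a library far from the other 4, in 128 groups, each of 1 named gene in 1 genotype. A library was found in 6, and chance alone gives about 1 in 20, or 6.4. Agxt was at 336.3 FPKM in KO 4, against 188 to 230 FPKM in the other KO libraries, and at 310.3 FPKM in WT 3, against 180 to 205 FPKM in the other WT libraries. Acmsd was at 7.66 FPKM in WT 2, against 3.83 to 4.56 FPKM in the other WT libraries. Ddc was at 31.6 FPKM in WT 3, against 37.2 to 39.3 FPKM in the others. Car5a was at 51.9 FPKM in WT 2, against 34.1 to 39.2 FPKM, and Axin2 at 3.09 FPKM in WT 3, against 4.98 to 5.6 FPKM.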

How the results depend on the processing

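Cps1, Afmid, Prodh2 and Aass stayed called under all 20 alternatives. Of the members, 3 rose and 5 fell, and without a library these counts ranged from 2 to 4 and from 2 to 5. Higher members became 5 after quantile normalization and 5 with library weights. Lower members became 2 with no filter on low values. Counts of pathway genes that rose, 3, became 1 with no filter and 5 after quantile normalization, and ranged from 1 to 5 without a library. Those that fell, 10, became 6 under each of these settings and ranged from 6 to 8 without a library. Over all genes, 488 higher and 558 lower became 294 and 370 with no filter, and without a library ranged from 258 to 454 and from 316 to 541. With no filter more genes are tested, and without a library there are fewer samples.

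With the replicate number as a block, members that fell numbered 2, Kynu, Nags, Prodh and Ddc lost their calls (adjusted p up to 0.080), and 230 genes were higher and 321 lower. The labels give a replicate number but not how it was assigned, so whether same-numbered libraries share a batch is not known. The correlations of their deviations ranged from -0.21 to 0.21. Of the 5 KO libraries, 2 correlated best with the WT library of their own number.

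Signs changed for 4 members, none of them called. Gls2 was -0.08 without KO 1, -0.06 without KO 2 and -0.13 without WT 5, in a range from -0.14 (WT 4) to 0.16 (WT 2). Tdo2 was -0.0074 without KO 3 and -0.0042 without WT 4, in a range from -0.040 (WT 1) to 0.054 (WT 5). Uroc1 ranged from -0.018 (without WT 4) to 0.13 (WT 3), and Agxt from -0.0031 (without KO 4) to 0.28 (WT 3). The cause of these changes was not tested. No scaling moved the median of all genes by over 0.1 on the log2 scale. Absolute depth is unknown, which limits what can be said of low genes.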
